A study of Mus musculus with 16 samples.

Results

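Cytosolic ribosomal protein genes encode the protein part of the ribosome that translates nuclear-encoded mRNA. Here they were the 76 genes, of 41740 listed, that met a rule on the gene name and on the measured counts. The name had to be Rpl or Rps followed by a number or by p0, p1 or p2, with an optional last letter a, x or l, and the gene was chosen by a count of at least 10 in at least 4 of the 16 files. Large subunit (60S) genes made up 46 of the 76 and small subunit (40S) genes 30. A total of 79 names fitted the pattern, and the 3 left out by the counts were tissue-restricted paralogs. Rpl10l had 0 reads in each library, Rpl39l had at most 2 and Rpl3l at most 3, whereas the lowest count of any member was 940, for Rpl10. All 76 members passed the filter on low counts and were among the 15267 genes tested.

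The RNA came from the whole wall of the ileum of male STAM mice, a model of diabetes with fatty liver disease and liver cancer made by streptozotocin at 2 days of age and a high-fat diet from 4 weeks. Control-STAM-nonINS mice (n = 4) had the genotype Vilin-Cre(-) with InsR-flox and received no insulin. The paper gives normal saline as the treatment of the control mice of this experiment. Control-STAM-INS mice (n = 6) had the same genotype and received insulin degludec, a long-acting insulin, 2 times daily from 6 weeks of age, at up to 12 U/kg. The ieIRKO-STAM-INS mice (n = 6) were Vilin-Cre(+) with InsR-flox and received the same insulin. Cre in these mice is driven by the villin promoter, so the insulin receptor gene is deleted in the intestinal epithelium, while the samples also held muscle, immune and stromal cells in which that promoter is silent. The floxed receptor allele, streptozotocin and the high-fat diet were common to the 3 groups, and the observation ended at 20 weeks. In such bulk tissue, fewer cells of a type and less RNA per cell cannot be told apart.

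Each ribosome carries 1 copy of most of these proteins, and their mRNAs are among the most abundant of a growing cell. Most of them begin with a 5′ terminal oligopyrimidine (TOP) tract, a C followed by a run of C and T, through which the kinase complex mTORC1 and the RNA-binding protein LARP1 couple their translation and stability to nutrients and insulin. The intestinal epithelium renews itself continuously and has a high demand for new ribosomes in the dividing cells of the crypt.

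The bases around the annotated start of the mRNA are shown for 8 members. Of these, 4 passed the insulin test and held a scored tract, and 2 passed it and held none. The others are the mTORC1-linked Rps6, and Rps27l, whose insulin fold change had the other sign. A tract was scored as a run of at least 5 letters, all C or T and beginning with C, that started within 5 bases of the annotated start on the coding strand. RefSeq windows on GRCm38.p6 were found for 56 of the 76 members, and 28 of these 56 genes held a tract. By window, 30 of 67 (44.8%) held one, beside 18.3% of the 32851 windows of all genes. Of the 11 members that passed the insulin test, 9 had a window and 4 of these held a tract. Each sequence runs 5′ to 3′ from 10 bases before the annotated start to 20 bases from it, and capitals mark the tract. In Rpl39 the run begins 4 bases before the annotated start, so most of it lies ahead of that start. A match or its absence is only a description of these letters around the annotated start.
Rpl39, chrX:37085203-37085232, minus strand: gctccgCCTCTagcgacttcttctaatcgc
Rps15a, chr7:118116128-118116157, minus strand: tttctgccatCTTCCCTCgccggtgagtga
Rps18, chr17:33955646-33955675, minus strand: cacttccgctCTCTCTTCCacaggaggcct
Rps27, chr3:90213629-90213658, minus strand: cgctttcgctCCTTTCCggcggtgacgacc
Rpl23, chr11:97782420-97782449, minus strand: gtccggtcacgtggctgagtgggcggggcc
Rpl27, chr11:101442235-101442264, plus strand: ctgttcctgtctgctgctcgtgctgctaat
Rps6, chr4:86857348-86857377, minus strand: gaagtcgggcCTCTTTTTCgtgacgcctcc
Rps27l, chr9:66946076-66946105, plus strand: cctccccgccgCCTCTatcccggaagttgc

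The libraries held 13288018 to 22215382 counted reads, and the counts of members ranged up to 36236 for Rpl41 in a single library. The deleted gene itself, Insr, the insulin receptor, was at 88.3 to 116 CPM without insulin, 49.9 to 76.1 CPM in the insulin-treated controls and 57.5 to 90.4 CPM in the libraries labelled ieIRKO-STAM-INS. It fell in the insulin comparison (log2 fold change -0.75 ± 0.14 SE, edgeR adjusted p = 0.00275) but did not pass the test between the last 2 groups (0.10 ± 0.13 SE, edgeR adjusted p = 0.805), so the count of the whole gene in the whole wall gave no check of the deletion, and directions below refer to libraries by their labels. CPM here means read counts scaled to 1000000 reads a library after TMM scaling, which corrects for differences in RNA composition between libraries.

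The 76 members took 2.85% to 4.98% of all counted reads. In Control-STAM-nonINS the share was 3.45%, 3.12%, 3.54% and 4.98% in replicates 1 to 4. In Control-STAM-INS it lay between 2.85% and 3.32% with a median of 3.22%, and in ieIRKO-STAM-INS between 3.32% and 4.70% with a median of 3.78%. The insulin-treated controls were thus the lowest and the most even group, and replicate 4 without insulin stood above the other libraries.

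Summed after TMM scaling, the members reached 36004, 33298, 37485 and 45065 CPM in the 4 Control-STAM-nonINS libraries. Control-STAM-INS gave 29708 at the lowest, 32713 at the median and 34247 at the highest, and ieIRKO-STAM-INS gave 32869, 37015 and 42516. The group means were 37963 ± 5042 (SD, n = 4), 32357 ± 1493 (SD, n = 6) and 37325 ± 3758 (SD, n = 6). Control-STAM-INS overlapped both other groups in this sum, through Control-STAM-nonINS replicate 2 and ieIRKO-STAM-INS replicate 2. Within ieIRKO-STAM-INS, replicates 3, 4 and 5 reached 39934, 39183 and 42516 CPM and replicates 1 and 6 reached 34601 and 34848 CPM, each above the highest insulin-treated control, while replicate 2 lay within the range of that group. No test was made of a sum over members.

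**Figure D1:**
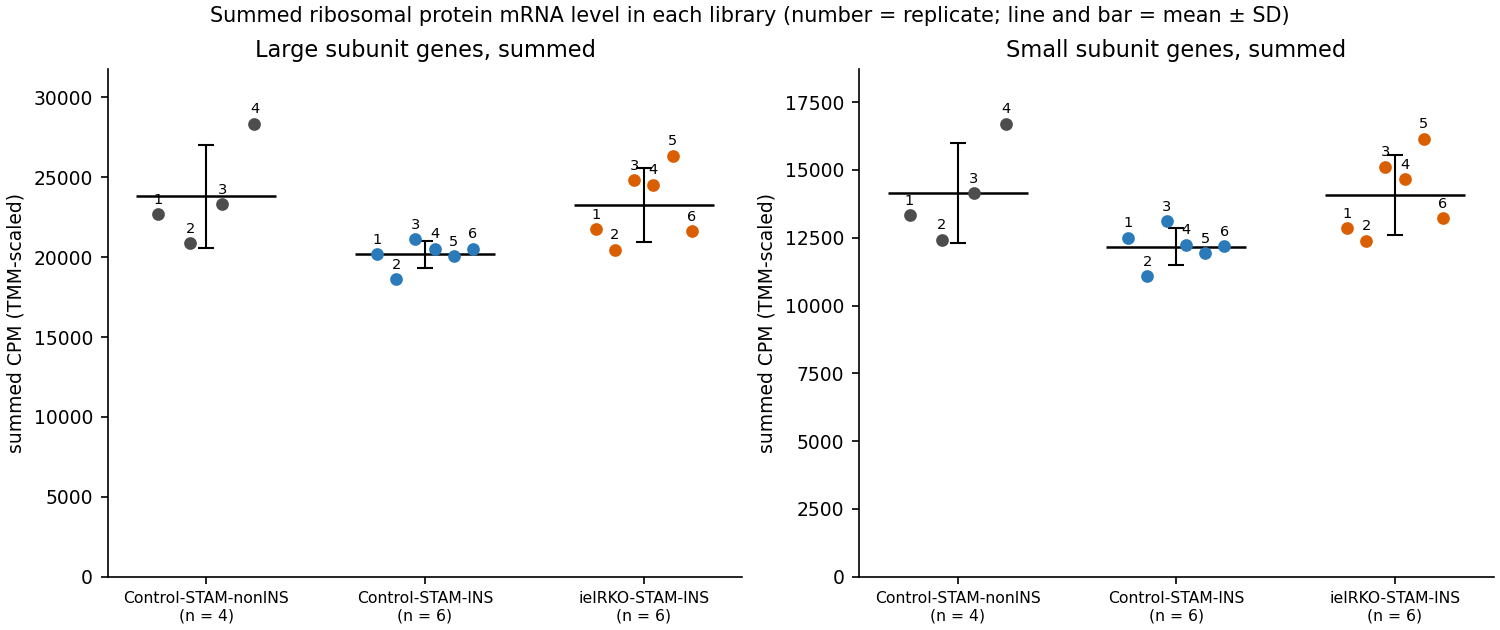
Summed CPM of the 46 large subunit genes (left) and the 30 small subunit genes (right) in each library, with the replicate number beside each point and the group mean ± SD in black. Both subunits gave the same picture, with Control-STAM-nonINS replicate 4 at 28357 and 16708 CPM and ieIRKO-STAM-INS replicate 5 at 26359 and 16157 CPM at the top.

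The balance of the subunits varied little. The ratio of the small to the large subunit sum lay between 0.588 and 0.620 over the 16 libraries. Its mean was 0.595 ± 0.00853 (SD, n = 4) without insulin, 0.603 ± 0.0126 (SD, n = 6) in the insulin-treated controls and 0.604 ± 0.00884 (SD, n = 6) in the libraries labelled ieIRKO-STAM-INS. Control-STAM-nonINS replicate 4 had the highest value of the 16 libraries for 54 of the 76 members and ieIRKO-STAM-INS replicate 5 for 17. Control-STAM-INS replicate 2 had the lowest value for 52 members. In ieIRKO-STAM-INS replicates 3 and 5, 76 of the 76 members lay above their group mean on the log2 scale, and in replicate 2 of that group 1 of 76 did.

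**Figure D2:**
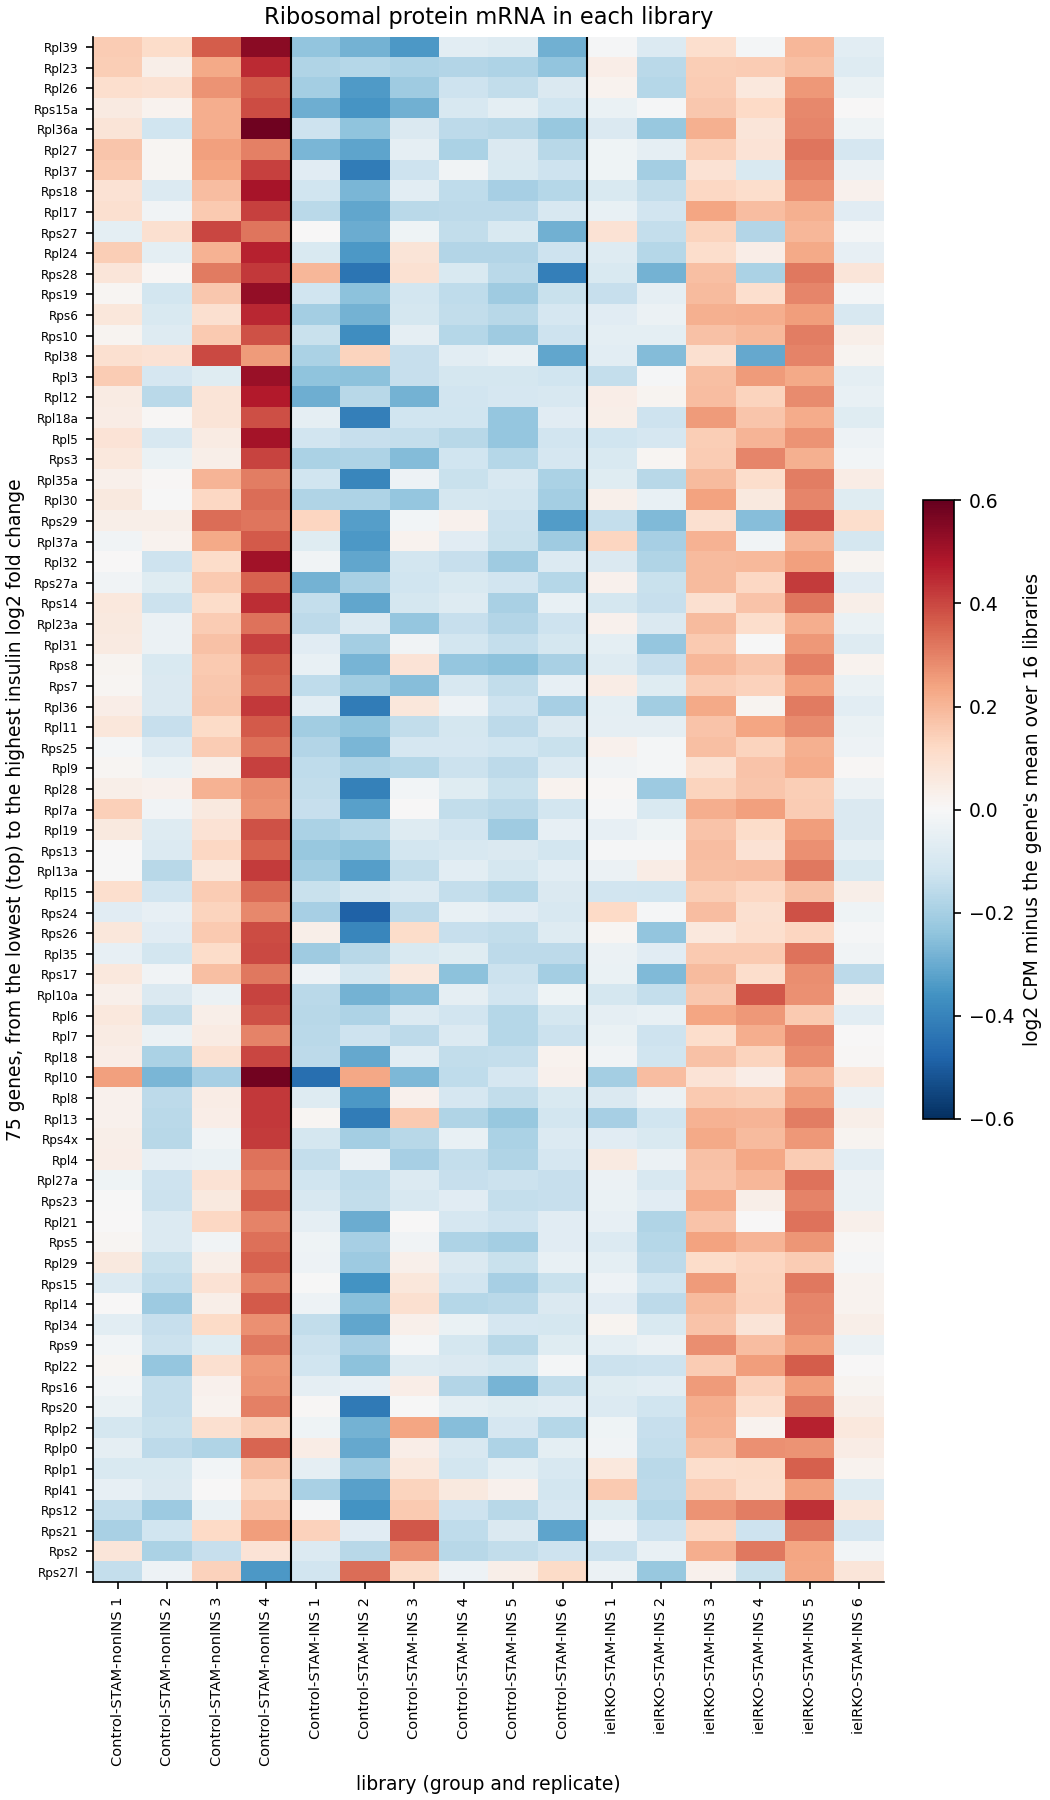
Level of 75 of the 76 members (rows) in each of the 16 libraries (columns), as log2 CPM minus the mean of that gene over the libraries, with rows ordered by the insulin log2 fold change. Whole columns share a colour: Control-STAM-nonINS replicate 4 was the highest library for 54 members and Control-STAM-INS replicate 2 the lowest for 52, while Rps27l in the bottom row was at its lowest (97.4 CPM) in Control-STAM-nonINS replicate 4.

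Other features of the libraries moved with these sums, and their part in the result was not tested. The 2 libraries highest in members also had the 2 highest TMM factors (1.105 and 1.106, against 0.938 to 1.065 in the others) and a high share of reads from the mitochondrial genome (6.72% and 6.29%, in a range of 4.49% to 6.72%). Their summed enterocyte markers were 23981 CPM in Control-STAM-nonINS replicate 4, the lowest of its group, and 9710 CPM in ieIRKO-STAM-INS replicate 5, the lowest of the 16. Their summed B and plasma cell markers were the highest of each group, at 1794 CPM in the former and 3151 CPM in the latter, which was also the highest of the 16. Crypt markers went apart in the same libraries, with 851 CPM in Control-STAM-nonINS replicate 4, the lowest of the 16, and 1260 CPM in ieIRKO-STAM-INS replicate 5, the highest of its group. Paneth cell markers were at 4610 CPM in the former, the lowest of its group, and at 3562 CPM in the latter, within the range of its group.

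Per kilobase of mRNA, Rpl41, which encodes the shortest ribosomal protein, was the most abundant member, at a mean of 3328 CPM per kilobase with the shortest coding transcript model and 2498 with the longest principal one. It ranked first of 76 under both lengths. Rplp1, of the ribosomal stalk, reached 1326 CPM per kilobase under both, and ranked 6th and 2nd. At the other end, Rpl10 was at 113 and 106 CPM per kilobase. Rps20, at a mean of 442 CPM, was at 119 CPM per kilobase under both. Both models gave it 3706 bases, against a median of 613 for the shortest models of the members, so its place rests on that length. Rps15a was the lowest under the longest model, at 52.9 CPM per kilobase, but was at 428 under the shortest. For other members the order depended on the model, as annotated lengths of a gene differed by up to several kilobases.

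The low level of Rpl10, which joins the large subunit late in its maturation, has to be read with that of its processed pseudogene. Rpl10-ps3 was listed with 5222 to 12034 reads a library and Rpl10 itself with 940 to 3046, so that Rpl10 took 12.5% to 20.4% of the reads given to both. The Rpl10 values are therefore uncertain. The other pseudogenes listed under the name of a member held few reads: Rpl9-ps6 had 5 to 34 reads, Rpl36a-ps1 at most 4, and Rpl9-ps1 and Rpl36-ps4 had 0 reads in each library. Rps27rt, a near-identical copy of Rps27, was listed with 69 to 440 reads beside 2331 to 6417 for Rps27.

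The insulin comparison, Control-STAM-INS minus Control-STAM-nonINS, asks what insulin treatment changed in the ileum of mice with an intact receptor. Of the 76 log2 fold changes, 75 were below 0, with a median of -0.26, or 16.3% lower on the linear scale, and quartiles of -0.30 and -0.20. Over all tested genes the median was -0.0043 and 50.6% lay below 0. In the edgeR quasi-likelihood test 11 members fell, 8 of the large and 3 of the small subunit, with an adjusted p under 0.05 after Benjamini-Hochberg correction over all genes. These 11 were 14.5% of the members, where 6.76% of all tested genes fell.

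None of the 76 rose in this comparison by edgeR, where 3.73% of all tested genes did. No member was higher at an unadjusted p under 0.05, where 10.8% of all genes were, and DESeq2 called 0 higher, against 5.66% of all genes. At that level 49 members were lower, where 14.5% of all genes were, and DESeq2 called 24 lower, the 11 among them, against 7.99% of all genes. The 2 groups did not overlap in 21 members (27.6%), each lower with insulin, against 6.23% of all genes, and in 0 members in the higher direction, against 4.4%. The median hardly differed between large and small subunit genes, at -0.26 and -0.25. It was -0.26 in the 38 members with the shorter mRNAs and -0.25 in the 38 with the longer ones, and 0.0028 in the 2454 other tested genes with an mRNA under 1000 bases.

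The largest fall was that of Rpl39, a small protein that lines the tunnel through which the new peptide leaves the large subunit. Its level was 252, 244, 290 and 329 CPM without insulin, and 178 at the lowest, 189 at the median and 216 at the highest with insulin. The groups did not overlap, and the log2 fold change was -0.51 ± 0.10 SE (0.70-fold, edgeR adjusted p = 0.00297). The exact two-sided permutation p, not adjusted over genes, was 0.00476, the smallest that 4 against 6 libraries can give.

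Rpl23, a large subunit protein at the face that meets the small subunit and also a known binder of Mdm2, was at 722, 669, 764 and 889 CPM without insulin. With insulin it lay between 553 and 579 CPM with a median of 575, and fell by 0.41 ± 0.10 SE on the log2 scale (edgeR adjusted p = 0.0107). Rpl26, which sits by the exit of the tunnel, went from 400, 397, 450 and 481 CPM to a range of 295 to 351 with a median of 330. Its log2 fold change was -0.40 ± 0.09 SE (edgeR adjusted p = 0.0123), and neither gene overlapped between the groups.

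Among the other large subunit genes that fell, Rpl27 was at 188 to 229 CPM without and 149 to 179 CPM with insulin (log2 fold change -0.37 ± 0.09 SE, edgeR adjusted p = 0.0183). Rpl17, at the tunnel exit, was at 488 to 658 CPM without and 399 to 463 CPM with insulin (-0.34 ± 0.10 SE, adjusted p = 0.0386). Rpl30 was at 225 to 284 CPM without and 192 to 210 CPM with insulin (-0.30 ± 0.09 SE, adjusted p = 0.0399), and shares exonic bases with an unclassified transcript on the other strand, which could not be separated if strand was not used in counting. Rpl37, a zinc-binding protein, was at 307 to 404 and 227 to 299 CPM (-0.35 ± 0.11 SE, adjusted p = 0.0449). These 4 did not overlap between the groups, while Rpl36a, at 206 to 336 and 189 to 211 CPM, did (-0.38 ± 0.12 SE, adjusted p = 0.0498).

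Of the small subunit, Rps15a was at 281, 275, 315 and 355 CPM without insulin and at 212 to 261 CPM with a median of 236 with insulin. It fell without overlap by 0.38 ± 0.10 SE on the log2 scale (edgeR adjusted p = 0.0198). Rps18, in the head of the subunit, was at 455, 405, 487 and 603 CPM against 354 to 409 CPM (-0.35 ± 0.11 SE, adjusted p = 0.0453). Rps27, a zinc-finger protein, was at 216, 240, 296 and 281 CPM against 183 to 225 CPM (-0.34 ± 0.11 SE, adjusted p = 0.0476). The last 2 overlapped between the groups.

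The members that passed were not set apart from the rest by a gap: Rpl36a at 0.0498 was followed by Rpl24, whose adjusted p was 0.0531 (log2 fold change -0.33 ± 0.11 SE). Rpl24 shares exonic bases with the transcript Gm28037 on the same strand. Rps6, the small subunit protein phosphorylated by S6 kinase downstream of mTORC1, was at 637, 572, 650 and 832 CPM without and 499 to 567 CPM with insulin. These values did not overlap, but the adjusted p was 0.0757 (-0.31 ± 0.11 SE).

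Other members stood near 0. Rps2 was at 953, 795, 824 and 960 CPM without and 806 to 1094 CPM with insulin (log2 fold change -0.02 ± 0.12 SE, 95% interval -0.26 to 0.21). Rps21, Rps12 and Rpl41 lay at -0.03, -0.04 and -0.06, each with an SE of 0.11 to 0.13. The stalk proteins, which recruit the elongation factors, were also in the upper part of the order: Rplp1 was at -0.08 ± 0.10 SE, Rplp0 at -0.10 ± 0.12 SE and Rplp2 at -0.10 ± 0.12 SE, with adjusted p from 0.677 to 0.698 (edgeR). The 95% intervals of these 7 genes reached both sides of 0.

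Rps27l, a paralog of Rps27 that p53 induces, was the 1 member above 0. It was at 112, 121, 136 and 97.4 CPM without insulin and at 114 to 156 CPM with a median of 130 with insulin, with broad overlap (log2 fold change 0.16 ± 0.11 SE, edgeR adjusted p = 0.377). Its reads per read of Rps27 averaged 0.457 ± 0.0774 (SD, n = 4) without insulin, 0.648 ± 0.123 (SD, n = 6) in the insulin-treated controls and 0.541 ± 0.0335 (SD, n = 6) in ieIRKO-STAM-INS, and the first 2 ranges met at 0.507 to 0.518.

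**Figure D3:**
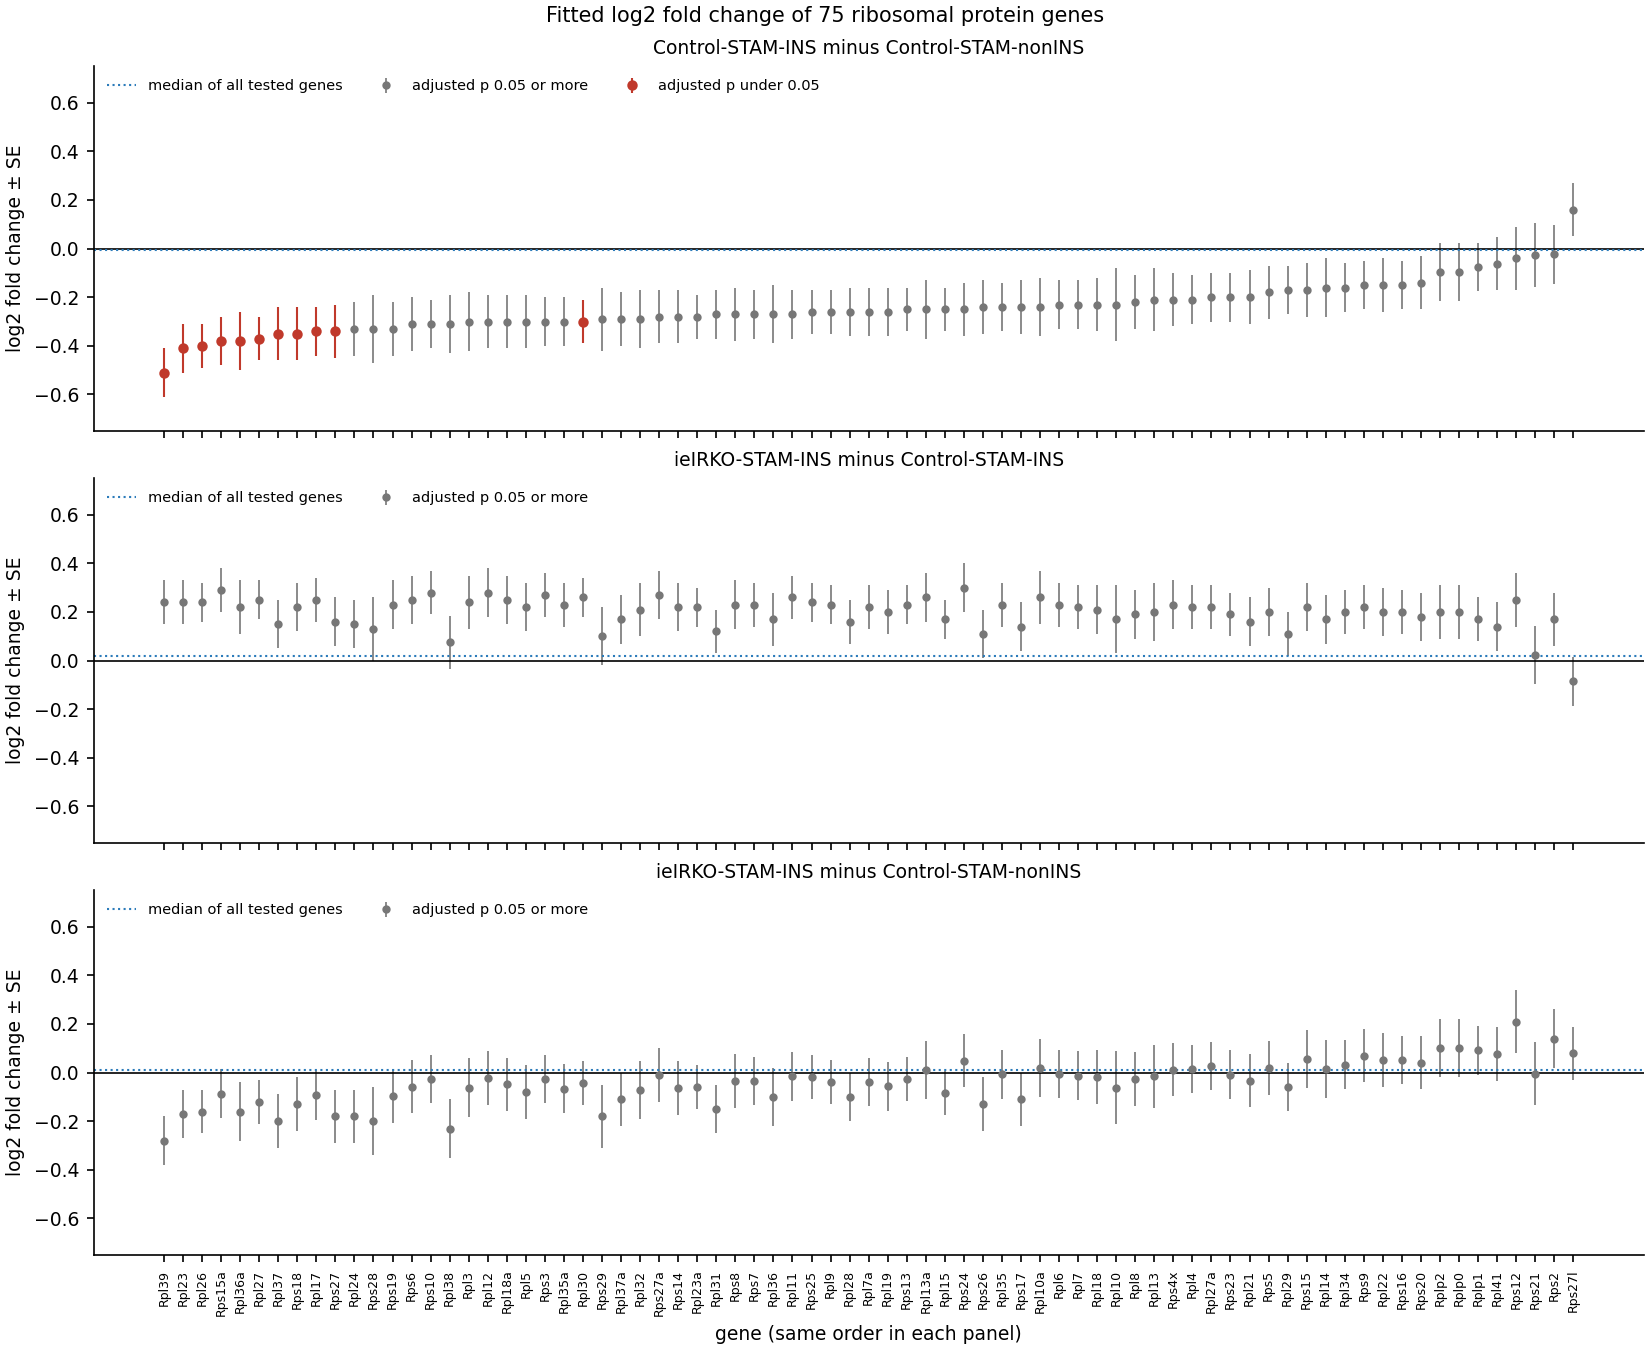
Fitted log2 fold change ± SE of 75 of the 76 members in the 3 comparisons, with the genes in the same order, members with an adjusted p under 0.05 in red and the median of all tested genes as a dotted line. In the insulin comparison all plotted genes but Rps27l lie below 0 and 11 are red, in the knockout comparison all but Rps27l lie above 0 and none is red, and in the combined comparison 54 of the 75 lie below 0.

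The insulin result was sensitive to single libraries. Without Control-STAM-nonINS replicate 4 the median was -0.16 with 3 members called, and without replicate 3 of that group the median was -0.25 with 3 called. Without replicate 2 there were 20 called, and without any 1 of the other 7 libraries there were 5 or 6. Rpl39, Rpl23 and Rpl26 passed in each of the 10 fits that left out 1 library, with adjusted p up to 0.042 over those fits and the other settings, whereas Rpl17, Rpl30, Rpl36a, Rpl37 and Rps18 each passed in 1 of the 10.

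The knockout comparison, ieIRKO-STAM-INS minus Control-STAM-INS, asks what the loss of the epithelial insulin receptor changed under insulin. Of the 76 members, 75 had a log2 fold change above 0 in the libraries labelled ieIRKO-STAM-INS, with a median of 0.22 (1.16-fold) and quartiles of 0.17 and 0.24, beside a median of 0.017 over all tested genes, 53.8% of which lay above 0. None of the 76 passed in either direction by edgeR, where 0.0393% of all tested genes rose and 0.183% fell, and DESeq2 called 0, against 0.48% of all genes higher and 0.403% lower. At an unadjusted p under 0.05, 44 members were higher and 0 lower by edgeR, where 7.38% and 3.9% of all genes were, and 48 were higher by DESeq2, where 7.13% were. The lowest adjusted p was 0.29, for Rps15a.

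The groups of this comparison did not overlap in 14 members (18.4%), each higher in ieIRKO-STAM-INS, where 0.439% of all tested genes were. In the lower direction it was 0 members against 0.406% of all genes. The comparison shares the 6 Control-STAM-INS libraries with the insulin comparison, and these low and even libraries enter both with opposite sign, so the directions are not independent of each other.

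Rps24, of the small subunit, had the highest knockout value. It was at 451 CPM at the lowest, 578 at the median and 612 at the highest in Control-STAM-INS, and at 619, 681 and 823 CPM in ieIRKO-STAM-INS. The groups lay side by side without overlap, and the log2 fold change was 0.30 ± 0.10 SE (95% interval 0.11 to 0.50, edgeR adjusted p = 0.305). The exact permutation p was 0.00216, the smallest that 6 against 6 libraries can give. Any gene without overlap takes this value, and it was not adjusted over genes.

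Rps15a, at 264 to 331 CPM with a median of 283 in ieIRKO-STAM-INS, was also above each insulin-treated control (0.29 ± 0.09 SE, edgeR adjusted p = 0.29). Rpl12, at the base of the stalk, was at 371 to 426 CPM in the insulin-treated controls and 441 to 554 CPM in ieIRKO-STAM-INS (0.28 ± 0.10 SE, adjusted p = 0.32). Rps10 was at 270 to 336 and 335 to 433 CPM (0.28 ± 0.09 SE, adjusted p = 0.305), and Rps3, which lines the channel by which the mRNA enters, at 581 to 650 and 653 to 853 CPM (0.27 ± 0.09 SE, adjusted p = 0.312). Of these 4, Rps10 overlapped between the groups, and both Rpl12 and Rps10 share exonic bases with a gene on the other strand. Rps10 also shares them with RPS10-NUDT3, a protein-coding gene on the same strand.

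Rps6 was at 499 to 567 CPM in Control-STAM-INS and at 568 to 724 CPM in ieIRKO-STAM-INS, again without overlap (0.25 ± 0.10 SE, edgeR adjusted p = 0.355). At the low end of the order Rps27l was at -0.09 ± 0.10 SE, Rps21 at 0.02 ± 0.12 SE, Rpl38 at 0.07 ± 0.11 SE and Rps29 at 0.10 ± 0.12 SE. The 3 stalk proteins, at 0.17 to 0.20, were close to the median of the members.

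**Figure D4:**
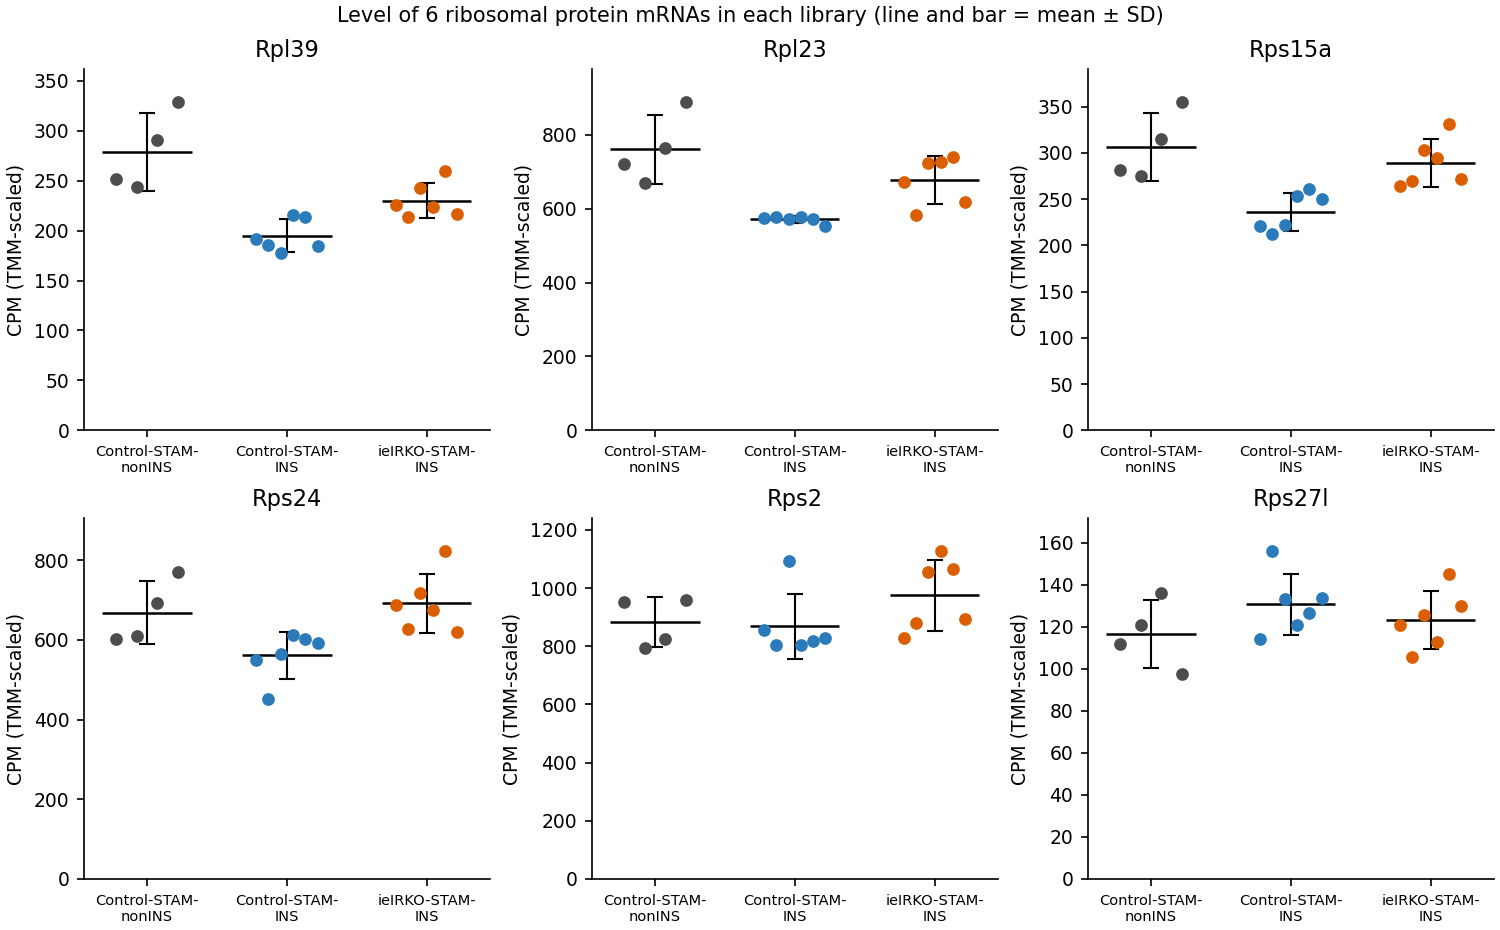
CPM of 6 members in each library, by group, with the group mean ± SD. Rpl39, Rpl23 and Rps15a were lower in the insulin-treated controls than in each control without insulin, Rps24 was higher in each ieIRKO-STAM-INS library than in the insulin-treated controls, and Rps2 and Rps27l overlapped in both comparisons.

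The combined comparison, ieIRKO-STAM-INS minus Control-STAM-nonINS, sets receptor loss and insulin together against neither. The members lay around 0, with 22 above and 54 below, a median of -0.03 and quartiles of -0.09 and 0.01, beside a median of 0.0088 over all tested genes. None passed by edgeR in either direction, where 5.74% of all tested genes rose and 7.59% fell. At an unadjusted p under 0.05 there were 0 members higher and 1 lower, where 14.7% of all genes were in each direction, and DESeq2 called 0 higher and 1 lower, against 8.4% and 9.05% of all genes. The groups overlapped in each of the 76 members, where 3.8% of all genes lay apart in the higher and 4.76% in the lower direction.

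Rpl39 was the lowest, at 213 to 259 CPM with a median of 225 in ieIRKO-STAM-INS against 252, 244, 290 and 329 CPM in Control-STAM-nonINS, and it was the member that DESeq2 called (edgeR log2 fold change -0.28 ± 0.10 SE, 95% interval -0.47 to -0.09, adjusted p = 0.067). Rpl38 followed at -0.23 ± 0.12 SE, then Rps28 and Rpl37, each at -0.20, and Rpl24 at -0.18. At the high end stood Rps12 at 0.21 ± 0.13 SE (95% interval -0.04 to 0.46, edgeR adjusted p = 0.294), Rps2 at 0.14, and Rplp0 and Rplp2 at 0.10. Without Control-STAM-nonINS replicate 4 the median turned to 0.07, with 55 members above 0, and no member passed.

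As shares of the reads of all 76 members, Rpl39 took 0.734% ± 0.0311 (SD, n = 4) without insulin, 0.604% ± 0.0578 (SD, n = 6) in the insulin-treated controls and 0.618% ± 0.0296 (SD, n = 6) in the libraries labelled ieIRKO-STAM-INS. Rps27a, made as a fusion with ubiquitin, took 1.06% ± 0.0365, 1.03% ± 0.059 and 1.06% ± 0.0569 in the same order. A share does not depend on the scaling between libraries. Without insulin the share lay above each insulin-treated library for 3 of the 76 members (Rpl39, Rpl23 and Rpl17) and below each for 2 (Rps12 and Rps9). The matching count over all tested genes was not made, so these counts are only a description. The share of Rpl39 was 0.699% to 0.775% without insulin, above both insulin-treated groups (0.520% to 0.669% and 0.572% to 0.651%), and that of Rps12 was 1.26% to 1.31%, below both (1.32% to 1.64% and 1.36% to 1.61%).

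A list of 8 ribosomal proteins and paralogs whose names fall outside the pattern gave no call in the 3 comparisons (0 of 8 by edgeR in each). With insulin 2 of the 8 were lower at an unadjusted p under 0.05, where 14.5% of all genes were, and DESeq2 called 1 lower. In the knockout comparison 2 were higher at that level, where 7.38% of all genes were, and in the combined comparison 0, and DESeq2 called 0 in both. Rps3a1, a small subunit protein also outside the pattern and not on the list, was at -0.09 ± 0.10 SE with insulin, 0.22 ± 0.09 SE in the knockout and 0.13 ± 0.10 SE in the combined comparison, and passed in none by edgeR (adjusted p = 0.639, 0.364 and 0.393). Rack1, a signalling scaffold on the small subunit, was at 577 to 886 CPM without and 515 to 575 CPM with insulin, without overlap (log2 fold change -0.34 ± 0.11 SE, edgeR adjusted p = 0.0602). Fau, a fusion with Rps30, was at -0.23 ± 0.09 SE (adjusted p = 0.135) and Rpsa at -0.05 ± 0.13 SE. Of the paralogs, Rpl22l1, Rpl7l1, Rpl36al and Rps27rt were at -0.09, -0.10, 0.08 and -0.32 (SE 0.11, 0.09, 0.14 and 0.29).

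Rpl22l1 was listed with 0.253 to 0.356 reads per read of its partner Rpl22, and Rpl7l1 with 0.0783 to 0.114 per read of Rpl7, and for both pairs the 3 groups overlapped. Rpl36al had 0.356 to 0.501 reads per read of Rpl36a without insulin and 0.534 to 0.788 in the insulin-treated controls, without overlap, and 0.445 to 0.649 in ieIRKO-STAM-INS.

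Of 25 translation factors and other genes with TOP mRNAs, 21 were below 0 with insulin (median -0.17), 24 above 0 in the knockout comparison (median 0.19) and 14 above 0 in the combined comparison (median 0.0068). In the combined comparison none passed by edgeR, 2 were higher and 1 lower at an unadjusted p under 0.05, where 14.7% of all genes were in each direction, and DESeq2 called 2 higher, against 8.4% of all genes. In the insulin comparison 1 of the 25 fell by edgeR, where 6.76% of all tested genes did, while 9 were lower at an unadjusted p under 0.05, where 14.5% were, and DESeq2 called 5 lower, where it called 7.99%. The gene that fell was the snoRNA host gene Snhg6, from 13.1 to 17.5 CPM to 8.69 to 12.6 CPM (-0.53 ± 0.17 SE, edgeR adjusted p = 0.0479). None of the 25 passed in the knockout comparison by edgeR, with 11 higher at an unadjusted p under 0.05, where 7.38% of all genes were, and 1 called higher by DESeq2, against 0.48%.

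Ribosome biogenesis factors make and process rRNA and assemble the subunits. With insulin 3 of 45 rose and 2 fell, where 3.73% and 6.76% of all tested genes did, and the median was 0.07, with 0 to 2 that rose and 1 or 2 that fell when 1 library was left out. Rrp12 (0.50 ± 0.16 SE, edgeR adjusted p = 0.0459), Nol10 (0.46 ± 0.14 SE, 0.0482) and Ubtf, a factor of RNA polymerase I (0.32 ± 0.10 SE, 0.0471), rose. Myc, a transcription factor that drives ribosome production, fell from 26.3 to 49.2 CPM to 15.5 to 23.4 CPM (-0.79 ± 0.18 SE, adjusted p = 0.00913), as did the polymerase subunit gene Polr1c (-0.28 ± 0.09 SE, 0.0477).

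In the knockout comparison 45 of the 45 lay above 0 with a median of 0.26, and none passed by edgeR (28 were higher at an unadjusted p under 0.05, where 7.38% of all genes were, and DESeq2 called 2, against 0.48%). In the combined comparison 22 of 45 rose, where 5.74% of all tested genes did, and none fell, with a median of 0.35, while no ribosomal protein gene rose. Rrp12 went from 5.96 to 9.11 CPM to 11.6 to 16.8 CPM (0.89 ± 0.16 SE, edgeR adjusted p = 0.00157), Utp20 from 14.7 to 19.0 to 20.6 to 32.8 CPM (0.68 ± 0.12 SE, 0.00202) and Ebna1bp2 from 36.4 to 44.6 to 49.2 to 66.2 CPM (0.53 ± 0.10 SE, 0.00237). The count of 22 was 8 without the 2 libraries of highest TMM factor, 11 without the 2 ieIRKO-STAM-INS libraries richest in T cell markers, and 12 to 28 when 1 library was left out, with 12 without Control-STAM-nonINS replicate 1 or 2 and 13 and 14 without ieIRKO-STAM-INS replicates 5 and 6.

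Mitochondrial ribosomal proteins, which serve the separate ribosome of the mitochondrion, had medians of 0.06, 0.08 and 0.13 in the insulin, knockout and combined comparisons. With insulin 2 of 78 rose (Mrpl34, 0.41 ± 0.11 SE, edgeR adjusted p = 0.0189, and Mrpl36, 0.36 ± 0.11 SE, 0.0495) and 1 fell (Mrpl45, -0.35 ± 0.09 SE, 0.0235), where 3.73% and 6.76% of all tested genes did. When 1 library was left out 0 to 2 rose and 0 to 1 fell, with none in either direction without Control-STAM-nonINS replicate 1. In the combined comparison 7 rose, against 5.74% of all tested genes, among them Mrps26 (0.45 ± 0.12 SE, adjusted p = 0.0164) and Mrpl3 (0.37 ± 0.10 SE, 0.0232). These 7 were 0 to 4 without any 1 of Control-STAM-nonINS replicates 1, 2 and 4 and ieIRKO-STAM-INS replicates 3, 5 and 6, and 11 and 12 without ieIRKO-STAM-INS replicates 1 and 2. They were 1 without the 2 libraries of highest TMM factor and 0 when only the 2 groups were fitted. The short nuclear-encoded subunits of oxidative phosphorylation had medians of 0.01, -0.08 and -0.06, and 1 of 45, Ndufa6, fell in the combined comparison (-0.35 ± 0.11 SE, adjusted p = 0.0452), a lower share than the 7.59% of all tested genes that fell. Of the 16 regulators of ribosomal protein synthesis, 11 lay below 0 with insulin, and none passed by edgeR in the insulin or knockout comparison. With insulin 4 were lower at an unadjusted p under 0.05, where 14.5% of all genes were, and DESeq2 called 1 lower, against 7.99%. In the combined comparison 1 of the 16 fell by edgeR, a share near that of all tested genes. It was Rheb, the activator of mTORC1, from 66.0 to 82.7 CPM to 51.5 to 66.4 CPM (-0.29 ± 0.09 SE, edgeR adjusted p = 0.0375).

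**Figure D5:**
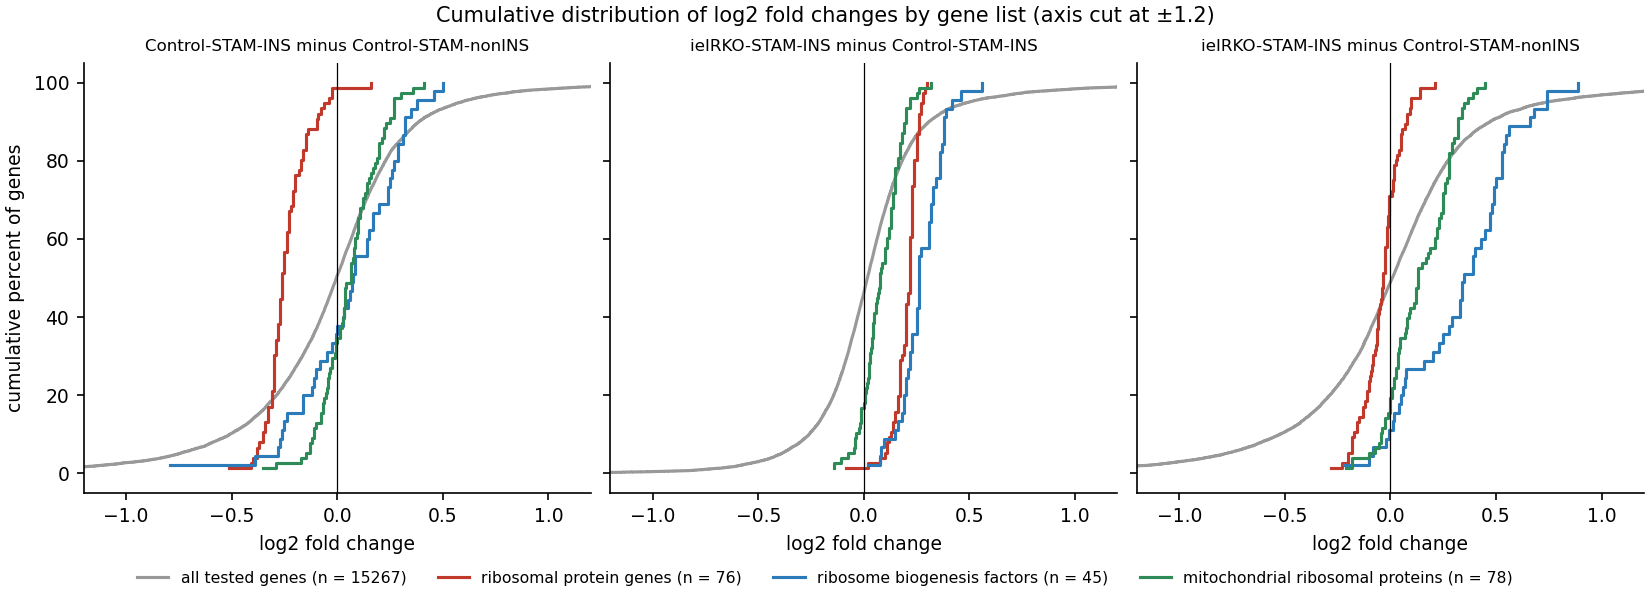
Cumulative percent of genes by log2 fold change for all 15267 tested genes, the 76 ribosomal protein genes, 45 ribosome biogenesis factors and 78 mitochondrial ribosomal proteins in the 3 comparisons. The ribosomal protein genes form a steep curve around -0.26, 0.22 and -0.03, and the biogenesis factors lie to the right of it, at medians of 0.07, 0.26 and 0.35.

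Markers of several cell types moved with the groups as well, and their part in the member values was not tested. Over all tested genes 3.73% rose and 6.76% fell with insulin. In the knockout comparison 0.0393% rose and 0.183% fell, and in the combined comparison 5.74% rose and 7.59% fell. A list with 1 call in a comparison is not read as a change. Of 7 tested T cell markers (an 8th, Trac, was at 0 in each library) 3 rose with insulin and 5 in the combined comparison, with summed levels of 16.2 to 27.6 CPM without insulin, 26.4 to 42.8 CPM in the insulin-treated controls and 27.7 to 97.7 CPM in ieIRKO-STAM-INS. Of 8 B and plasma cell markers 4 rose in the combined comparison, with sums, in the same order of groups, of 729 to 1794, 980 to 1564 and 1726 to 3151 CPM. Of 7 Paneth cell markers 3 rose with insulin and 5 fell in the knockout comparison and 4 in the combined comparison (4610 to 7812, 6583 to 11838 and 2388 to 4155 CPM). Of 10 enterocyte markers, none of which was at 0, Fabp1 fell with insulin and in the combined comparison (23981 to 39384, 23965 to 39434 and 9710 to 41050 CPM), and of 10 markers of crypt and dividing cells Stmn1 rose in the combined comparison (851 to 1164, 1085 to 1344 and 1110 to 1260 CPM). Of 2 transcripts read as signs of RNA quality, Neat1 fell in the combined comparison (1358 to 2253, 1142 to 1674 and 995 to 1770 CPM summed). Of 10 pancreatic acinar markers 1 was tested, Cela1, which fell with insulin and in the combined comparison, and 6 were at 0 in each library (5.48 to 9.23, 3.12 to 4.85 and 3.44 to 4.50 CPM summed). The share of reads from the mitochondrial genome was 5.43% to 6.72%, 4.61% to 5.68% and 4.49% to 6.29% in the same order of groups.

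Left out together, the 2 libraries richest in T cell markers, ieIRKO-STAM-INS replicates 2 and 3, left the knockout median of the members at 0.22 and gave a combined median of -0.02. Left out together, Control-STAM-nonINS replicate 4 and ieIRKO-STAM-INS replicate 5 moved the insulin median to -0.15 with 5 members called, the knockout median to 0.17 and the combined median to 0.03.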

How the data were processed

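Total RNA from the ileal wall of 16 mice was sequenced, and the labels mark each library as a separate biological replicate. The authors aligned the reads to GRCm38 (mm10) with CLC Genomics Workbench, and deposited raw read counts per gene, 1 file per mouse. The annotation, strand setting and treatment of reads with several matches are not given in the sources used here. Library totals were 13288018 to 22215382 counts.

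Counts were tested with edgeR 4.0.16 (R 4.3.3): filterByExpr (minimum count 10, minimum total 15), TMM scaling, robust quasi-likelihood fit of the 3 groups together, and Benjamini-Hochberg adjustment over 15267 genes at 0.05. Single members also had an exact two-sided permutation test of mean log2 CPM (prior count 2), with 210 arrangements for 4 against 6 and 924 for 6 against 6 libraries. Intervals are 95%. The fit was also run on simulated counts, with changes larger than those of the members placed in genes drawn independently. That run does not bear on small changes shared by many genes. Alternatives were DESeq2 1.42.0, other scalings and filters, 2-group fits, a replicate block and leaving out each library.

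The members and gene lists were chosen with earlier results of these data known. Named were, in each comparison, members past the threshold and the 5 largest differences in each direction, the 5 highest and 5 lowest levels, stalk proteins, paralogs, Rps6, Rps27a, Rpl22, proteins outside the name pattern, up to 3 genes a direction of each other list, and Insr. Some genes that this rule names are not reported here. Rps3a1, Rps9, Rps20 and the pseudogenes were named after their values were seen. Lengths came from GENCODE M21 gene models (shortest coding transcript). Start windows came from RefSeq (GRCm38.p6).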

Additional observations from a re-analysis of the deposited data

Results flagged for a closer look

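In each group the gap between the most extreme library and its neighbour was compared with the range of the group by Dixon's criterion, for 37 measures and 111 groups in all. Chance flags about 1 in 20 groups, or 5.55 here, and 4 were found, all in Control-STAM-INS. Replicate 2 was low for Rpl17 (gap over range 0.684) and Rpl37 (0.712). Replicate 6 was low for Rpl23 (0.773), and replicate 3 was high for Rps2 (0.827).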

How the results depend on the processing

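The 11 members that fell with insulin were 24 with DESeq2, 5 with upper-quartile normalization, 5 without a filter on low counts and 3 to 20 when 1 library was left out. They were 5 without the 2 libraries of highest TMM factor, a setting chosen after seeing the data, as was leaving out ieIRKO-STAM-INS replicates 2 and 3. In the combined comparison 1 member fell with DESeq2, and 0 to 1 fell when 1 library was left out (1 without Control-STAM-nonINS replicate 2 or ieIRKO-STAM-INS replicate 5). The cause was not tested. Leaving out 1 library gave medians of -0.307 to -0.161 (insulin), 0.172 to 0.249 (knockout) and -0.0831 to 0.0654 (combined). Of the values for single named members, 1206 kept their direction and side of the threshold, 83 lost and 5 gained significance, and 45, of 12 genes, changed sign. These 45 lay within 0.0954 of 0 in the reported fit, and none passed the threshold in either fit. Leaving out 1 library gave, for insulin, -0.101 to 0.018 (Rps2), -0.115 to 0.0579 (Rps21), -0.0953 to 0.0409 (Rps12) and -0.148 to 0.0399 (Rplp0). For the knockout it gave -0.0484 to 0.11 (Rps21) and -0.000216 to 0.126 (Rpl38). For the combined comparison it gave -0.168 to 0.124 (Rpl10), -0.127 to 0.0854 (Rpl3), -0.0538 to 0.0616 (Rpl7), -0.0762 to 0.08 (Rps27a), -0.12 to 0.0599 (Rps6) and -0.0205 to 0.13 (Rpl22). Without the 2 libraries of highest TMM factor, signs changed for insulin in Rps2 (0.027), Rps21 (0.0671), Rps12 (0.0499) and Rplp0 (0.0486), for the knockout in Rps21 (-0.0507) and Rpl38 (-0.00207), and for the combined comparison in Rpl10 (0.1), Rpl3 (0.0594), Rpl7 (0.0193), Rps27a (0.0127), Rps6 (0.0297) and Rps27l (-0.0456). With upper-quartile normalization they changed in Rps2 (insulin, 0.000188), Rpl7 and Rps27a (combined, 0.0227 and 0.0258), and without ieIRKO-STAM-INS replicates 2 and 3 in Rpl7 and Rps27a (combined, 0.0331 and 0.0257). The 22 biogenesis factors that rose in the combined comparison were 24 with DESeq2 and 9 when only those groups were fitted. Replicate numbers are not stated to pair mice, and deviations of same-numbered libraries correlated at -0.094 to 0.179. With the replicate number as a block, 13 members fell with insulin, none passed in the knockout or combined comparison, and 12 biogenesis factors and 2 mitochondrial ribosomal proteins rose in the latter. In the insulin comparison 0 biogenesis factors rose and 2 fell under this block, with a median of -0.0206. Without a filter on low counts 0 rose and 1 fell. With 4 mice in the group without insulin, single libraries weigh heavily on its mean.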
